A study of Macaca mulatta with 27 samples.

Results

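The genes described were 7 transcription factors known as regulators of trophoblast and amnion: the AP-2 factors TFAP2A and TFAP2B, the GATA factors GATA2 and GATA3, the caudal homeobox factor CDX2, the bHLH factor HAND1 and the LIM homeobox factor ISL1. They were chosen by symbol, and all 7 were found among the 17967 genes of the count tables. The data were bulk RNA-seq counts of 27 libraries of rhesus PSCs, with 6 libraries of primed cells and 3 libraries for each of 7 protocols meant to bring primed cells to naive pluripotency. Per the study's methods, all the cells were the clonal line LyonES-tGFP-(S3), which carries a tauGFP transgene under the ubiquitous CAG promoter and a STAT3-ERT2 fusion that tamoxifen activates. Primed cells were passaged mechanically in clumps, whereas the reprogrammed cells were dissociated into single cells.

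The protocols without tamoxifen were LCDM (EPS), t2iLGöY, 4i/L/b, E-NHSM and NHSM-v, in which STAT3-ERT2 was therefore not activated. TL2i cells received tamoxifen, LIF and inhibitors of MEK and GSK3β. TL-CDK8i cells, called TL-CDK8/19i by the study, received an inhibitor of CDK8 and CDK19 instead of the MEK and GSK3β inhibitors. All groups therefore shared 1 clone, and the 7 comparisons with primed cells shared the same 6 primed libraries.

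Trophoblast is the outer layer of the blastocyst that builds the placenta, and amnion is the epithelium that arises from the primate epiblast after implantation. GATA2, GATA3, TFAP2A and its relative TFAP2C cooperate in the entry of human pluripotent cells into trophoblast, CDX2 marks early trophectoderm, and BMP signaling induces several of these factors together with HAND1 and ISL1 in amnion-type differentiation. None of the 7 is restricted to these tissues: AP-2 factors also act in neural crest, surface ectoderm and spinal interneurons, GATA2 and GATA3 in blood and neurons, HAND1 in heart, CDX2 in the caudal embryo and intestine, and ISL1 in heart, motor neurons and sensory neurons.

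Library totals ran from 7111886 to 20760914 counts with a median of 12201171. Levels are given as CPM, the counts of a gene relative to the library total, scaled by the trimmed mean of M values (TMM). A total of 3 counts, used as the floor of detection, equalled 0.138 to 0.422 CPM depending on the library. The differences were tested with edgeR's quasi-likelihood test with Benjamini-Hochberg adjustment over all genes tested, and a gene was called at an adjusted p under 0.05. Nothing in the labels says that libraries of a group came from separate cultures, so p-values measure only the spread between these libraries. In bulk RNA, fewer cells expressing a gene and less RNA per cell cannot be told apart.

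TL2i was the only protocol in which every library held more than 3 counts of each of the 7 factors. The corresponding number of factors was 6 in TL-CDK8i, 5 in t2iLGöY, 3 in LCDM (EPS), 3 in 4i/L/b, 2 in NHSM-v, 1 in primed cells and 0 in E-NHSM. A single primed library had between 2 and 4 of the factors, a single E-NHSM library between 0 and 2, and a single TL-CDK8i library 6 or, in library 1, all 7.

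Against primed cells, 5 of the 7 factors tested rose in TL2i and 0 fell, where 25.6% of the 13808 genes tested rose and 25.2% fell. In t2iLGöY, 3 of 4 tested rose and 0 fell, beside 27.1% and 27.2% of all genes tested. In TL-CDK8i, 2 of 5 tested rose and 0 fell, beside 22.3% and 23.8%. In LCDM (EPS), 2 of 4 rose and 0 fell, beside 28.2% and 28.9%. In NHSM-v, 2 of 3 rose and 0 fell, beside 28.0% and 30.6%. In 4i/L/b, 1 of 3 rose and 0 fell, beside 26.6% and 29.0%. E-NHSM went the other way, with 0 of 3 tested higher and 2 lower, beside 11.1% and 15.1%. In each of these 7 comparisons the count of 0 was also 0 at an unadjusted p under 0.05 (edgeR) and with DESeq2. The factors not tested in a comparison had too few counts in both groups to pass the filter. A factor that is near 0 in primed cells enters a test more readily where a protocol raises it, although GATA2 was tested in E-NHSM without such a rise. The counts of tested factors therefore differ between comparisons and are no measure of the whole group.

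**Figure D1:**
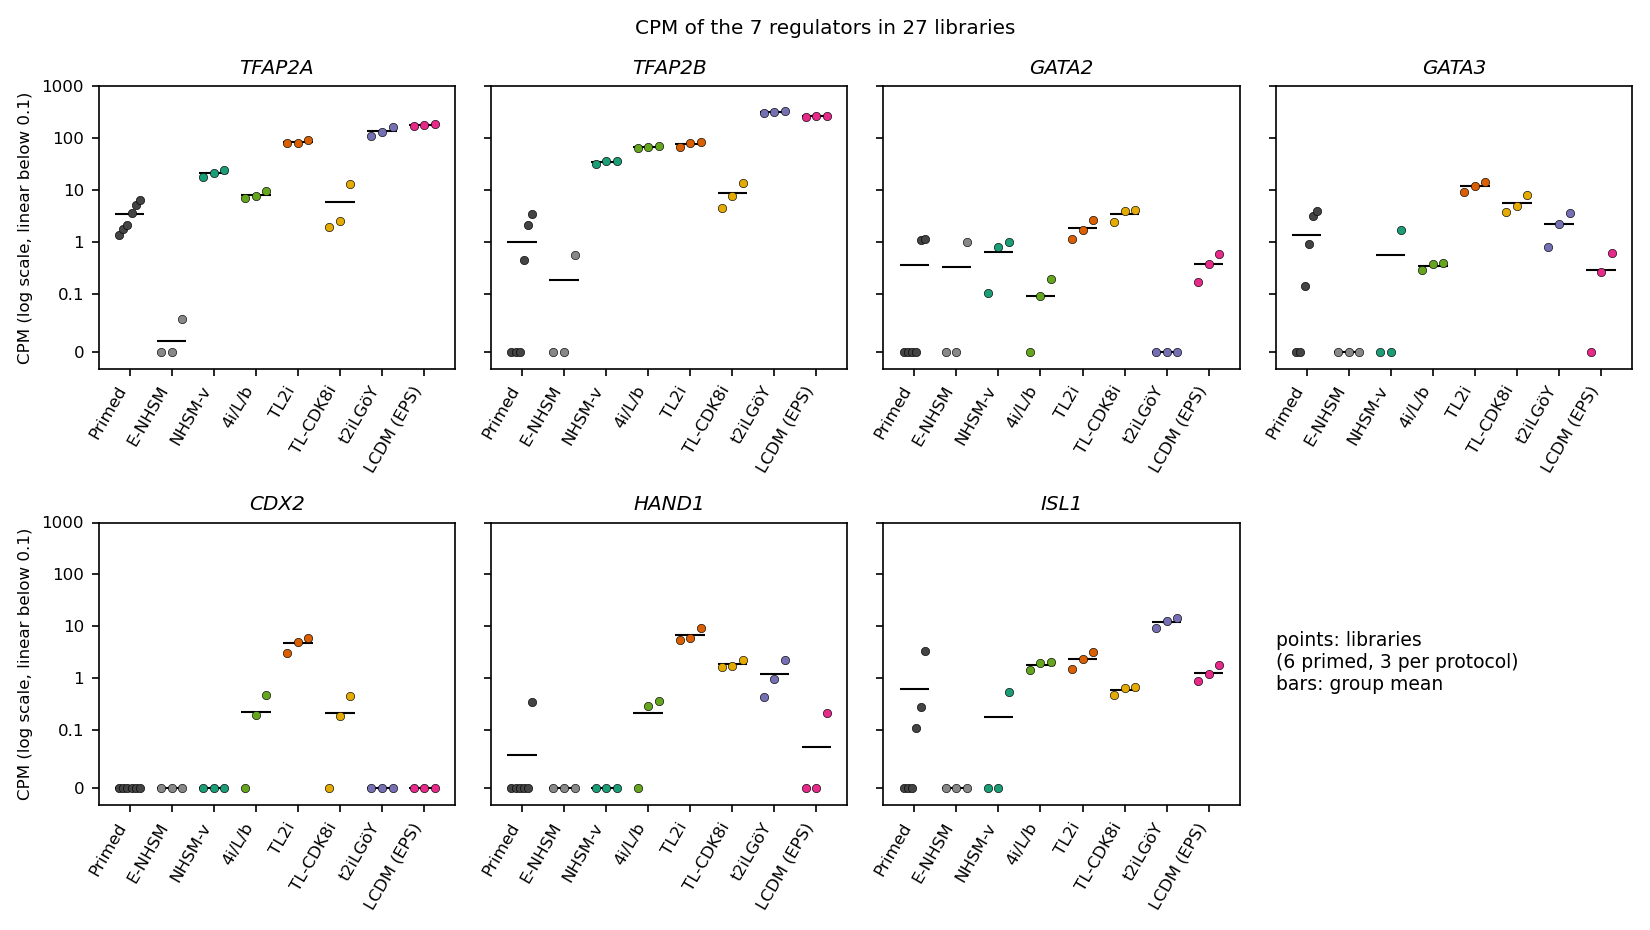
CPM of TFAP2A, TFAP2B, GATA2, GATA3, CDX2, HAND1 and ISL1 in each of the 27 libraries, on a log axis that is linear below 0.1; points are libraries, bars are group means. The 3 LCDM (EPS) and 3 t2iLGöY libraries sit highest for TFAP2A and TFAP2B, the 3 TL2i libraries for CDX2, HAND1 and GATA3, and the 3 t2iLGöY libraries for ISL1.

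TFAP2A, an AP-2 factor of early ectoderm and trophoblast, was measured in all 6 primed libraries, with a lowest level of 1.35, a median of 2.83 and a highest of 6.33 CPM. It stood at 89.5, 78.2 and 78.2 CPM in TL2i, at 133, 108 and 160 in t2iLGöY, and at 177, 185 and 169 in LCDM (EPS). Every library of these 3 protocols was above every primed library. The log2 fold change was 4.62 ± 0.35 (SE) in TL2i, with an adjusted p of 1.1e-07 (edgeR, 3 against 6 libraries). It was 5.36 ± 0.34 in t2iLGöY (adjusted p = 5.7e-09, edgeR) and 5.77 ± 0.31 in LCDM (EPS) (adjusted p = 2e-09, edgeR). In NHSM-v, TFAP2A reached 24.3, 17.8 and 21 CPM, again above all primed libraries (log2 fold change 2.59 ± 0.44, adjusted p = 0.00013, edgeR).

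The other 3 protocols did not raise TFAP2A past the threshold. In 4i/L/b its levels were 7.05, 7.51 and 9.38 CPM. They did not overlap with the primed range, yet the test missed the threshold (log2 fold change 1.19 ± 0.52, adjusted p = 0.068, edgeR). With the primed library J2 left out, which was the highest for TFAP2A, the log2 fold change was 1.51 (adjusted p = 0.026, edgeR). TL-CDK8i gave 12.9, 2.52 and 1.9 CPM, so that library 1 stood above the primed range and the other 2 lay within it (log2 fold change 0.73 ± 0.69, adjusted p = 0.42, edgeR). Leaving out library 1 turned the direction, to a log2 fold change of -0.61. In E-NHSM, TFAP2A was nearly absent, with 0, 1 and 0 counts. This was at least 21.6-fold lower than in primed cells against a floor of 3 counts per library (adjusted p = 0.001, edgeR), and every E-NHSM library was below every primed library.

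TFAP2B, the closely related AP-2 factor, was absent from 3 of 6 primed libraries and reached 3.45 CPM in the highest. It was 315, 306 and 324 CPM in t2iLGöY and 260, 259 and 258 CPM in LCDM (EPS), the order of these protocols being the reverse of that for TFAP2A. Its libraries did not overlap between these 2 protocols, nor between them and any other group. Against primed cells, its log2 fold change reached 8.56 ± 0.53 in t2iLGöY (adjusted p = 4.3e-09, edgeR) and 8.28 ± 0.55 in LCDM (EPS) (adjusted p = 1.6e-08, edgeR).

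At intermediate levels, TFAP2B was 82.4, 68.3 and 79.7 CPM in TL2i, a log2 fold change of 6.45 ± 0.70 (adjusted p = 4.3e-06, edgeR). It was 63.5, 70.1 and 66.8 CPM in 4i/L/b, a log2 fold change of 6.18 ± 0.73 (adjusted p = 8.1e-06, edgeR). The libraries of these protocols overlapped. NHSM-v followed with 35.5, 31.5 and 35.7 CPM (log2 fold change 5.15 ± 0.87, adjusted p = 0.00011, edgeR), below all libraries of 4i/L/b and TL2i. TL-CDK8i had 13.7, 7.68 and 4.47 CPM, still above all primed libraries (log2 fold change 3.09 ± 1.16, adjusted p = 0.042, edgeR). That call was lost when any of the 3 TL-CDK8i libraries or primed library J2, K2 or K3 was left out, with log2 fold changes between 2.60 and 3.42 and adjusted p-values between 0.053 and 0.19 (edgeR), and with DESeq2 (adjusted p = 0.16). E-NHSM held 10 counts in library 2 and 0 in the others, too few to be tested.

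The AP-2 factors did not rise in proportion. The ratio of TFAP2B reads to TFAP2A reads within a library is compared here only across groups, because gene length cancels between libraries but not between the genes. In 4i/L/b the ratio was 9.01, 9.34 and 7.12, above every other library in which it could be computed. It was 2.37, 2.84 and 2.02 in t2iLGöY, 1.46, 1.78 and 1.7 in NHSM-v, and 1.47, 1.4 and 1.53 in LCDM (EPS). TL2i lay lower, at 0.92, 0.874 and 1.02, and did not overlap with these 4 protocols. In TL-CDK8i the ratio ran from 1.06 to 3.04, its lowest value being in library 1, where TFAP2A was highest. The ratio in the 3 primed libraries with both genes detected was 0.333 to 1, on 5 to 31 reads of TFAP2B.

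**Figure D2:**
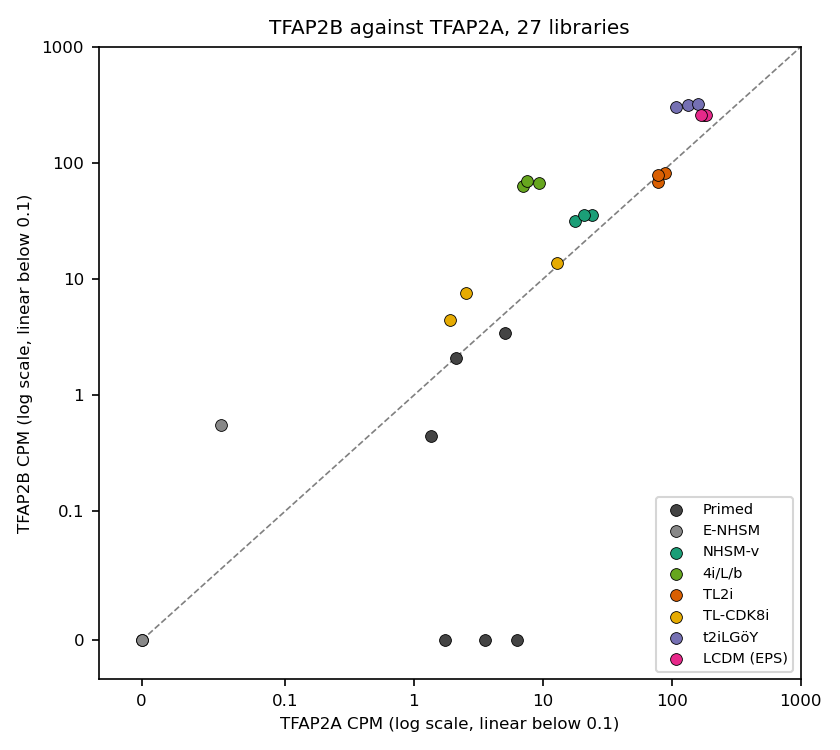
TFAP2B CPM against TFAP2A CPM in the 27 libraries, both axes on a log scale that is linear below 0.1; the dashed line marks equal CPM. The 3 4i/L/b libraries lie farthest above the line among those with TFAP2A above 1 CPM, at ratios of 7.12 to 9.34, and the TL2i libraries lie on it.

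GATA3, a zinc-finger factor of trophoblast that also acts in T cells and ectoderm, was uneven among the primed libraries, at 0.889, 3.86 and 0.141 CPM in J1 to J3 and 3.11, 0 and 0 CPM in K1 to K3. It was highest in TL2i, at 9.28, 13.9 and 12 CPM, above every library of any other group. The difference from primed cells was a log2 fold change of 3.13 ± 1.00 (adjusted p = 0.018, edgeR). The call was lost with TL2i library 2 or 3 left out (log2 fold changes 2.99 and 3.12, adjusted p-values 0.069 and 0.058, edgeR) and with DESeq2 (3.17, adjusted p = 0.078).

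TL-CDK8i was the next highest for GATA3, at 4.95, 8 and 3.71 CPM. Library 3 overlapped with the highest primed library, and the difference did not pass the test (log2 fold change 2.01 ± 1.15, adjusted p = 0.17, edgeR). In t2iLGöY the levels of 3.6, 0.804 and 2.23 CPM lay within the primed range (log2 fold change 0.76 ± 1.37, adjusted p = 0.66, edgeR). The remaining protocols held less: up to 1.7 CPM in 1 NHSM-v library and 0 in the other 2, 0.29 to 0.386 in 4i/L/b, and 0 to 0.611 in LCDM (EPS). GATA3 had 0 counts in all 3 E-NHSM libraries, which was called lower (at least 8.54-fold against the floor, adjusted p = 0.048, edgeR). Since 2 of 6 primed libraries also had 0 counts, the groups overlapped, and the call was lost with any E-NHSM library left out (adjusted p = 0.13 each, edgeR).

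GATA2, the relative of GATA3 that acts in trophoblast and in blood stem cells, had at most 12 counts in a primed library and 0 counts in 4 of the 6. Its highest levels were in TL-CDK8i, at 2.42, 4.06 and 3.9 CPM, and then in TL2i, at 1.71, 1.11 and 2.68 CPM. The TL-CDK8i libraries were all above the primed ones, but the adjusted p was 0.055 (log2 fold change 3.17 ± 1.27, edgeR). Leaving out primed library J1 or K3, the only ones with GATA2 reads, gave log2 fold changes of 3.89 and 3.92 with adjusted p-values of 0.033 and 0.031 (edgeR). The TL2i difference was a log2 fold change of 2.30 ± 1.33 (adjusted p = 0.17, edgeR). In t2iLGöY GATA2 had 0 counts in every library, although ISL1 and both AP-2 factors were high there. E-NHSM held 18 counts in library 2 and 0 in the others.

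CDX2, the caudal-type homeobox factor of early trophectoderm and of intestine, had 0 counts in all 6 primed libraries and in all libraries of E-NHSM, NHSM-v, t2iLGöY and LCDM (EPS). In TL2i it stood at 3.12, 5.09 and 6.07 CPM, on 64, 87 and 86 counts. This was at least 15.7-fold higher than in primed cells, whose libraries were set to the floor of 3 counts (adjusted p = 0.00028, edgeR). The only other reads were 2, 0 and 5 counts in 4i/L/b and 4, 0 and 2 counts in TL-CDK8i. TL2i was thus the only group with CDX2 above 1 CPM in any library.

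HAND1, a bHLH factor of trophoblast giant cells, extraembryonic mesoderm and heart, had 4 counts in primed library K1 and 0 in the other 5. In TL2i it stood at 5.52, 9.48 and 5.85 CPM, and all 3 libraries were above those of any other group. The log2 fold change was 6.59 ± 1.04 (adjusted p = 0.00013, edgeR), a size that rests on the 4 primed reads. TL-CDK8i had 2.3, 1.75 and 1.62 CPM, also above all primed libraries (log2 fold change 4.65 ± 1.28, adjusted p = 0.008, edgeR). The t2iLGöY libraries, at 0.951, 2.28 and 0.432 CPM, were above the primed ones too, but HAND1 did not pass the filter in that comparison and was not tested. HAND1 had 0 counts in E-NHSM and NHSM-v, and at most 4 counts in a library of LCDM (EPS) or 4i/L/b.

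ISL1, the LIM homeobox factor of amnion, cardiac progenitors and motor neurons, followed a different order. It was highest in t2iLGöY, at 12.9, 9.51 and 14.6 CPM, above every library of any other group. The primed libraries were at 0, 0.111 or 0.282 CPM, except for J3 at 3.38 CPM. The log2 fold change in t2iLGöY was 4.43 ± 1.15 (adjusted p = 0.0044, edgeR).

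TL2i had 1.51, 2.34 and 3.24 CPM of ISL1, 4i/L/b 1.45, 1.97 and 2.03, and LCDM (EPS) 1.78, 0.877 and 1.22. All 9 of these libraries were above 5 of the primed libraries and below J3. The log2 fold changes of 1.95 ± 1.39, 1.51 ± 1.41 and 1.11 ± 1.48 did not pass the test (adjusted p = 0.26, 0.38 and 0.55, edgeR). Without J3 they were 4.66, 4.22 and 3.85, with adjusted p-values of 0.0025, 0.0047 and 0.015 (edgeR), so that 1 primed library decided these calls. ISL1 had 5 or 6 counts in each TL-CDK8i library, 6 counts in 1 NHSM-v library and 0 in E-NHSM.

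**Figure D3:**
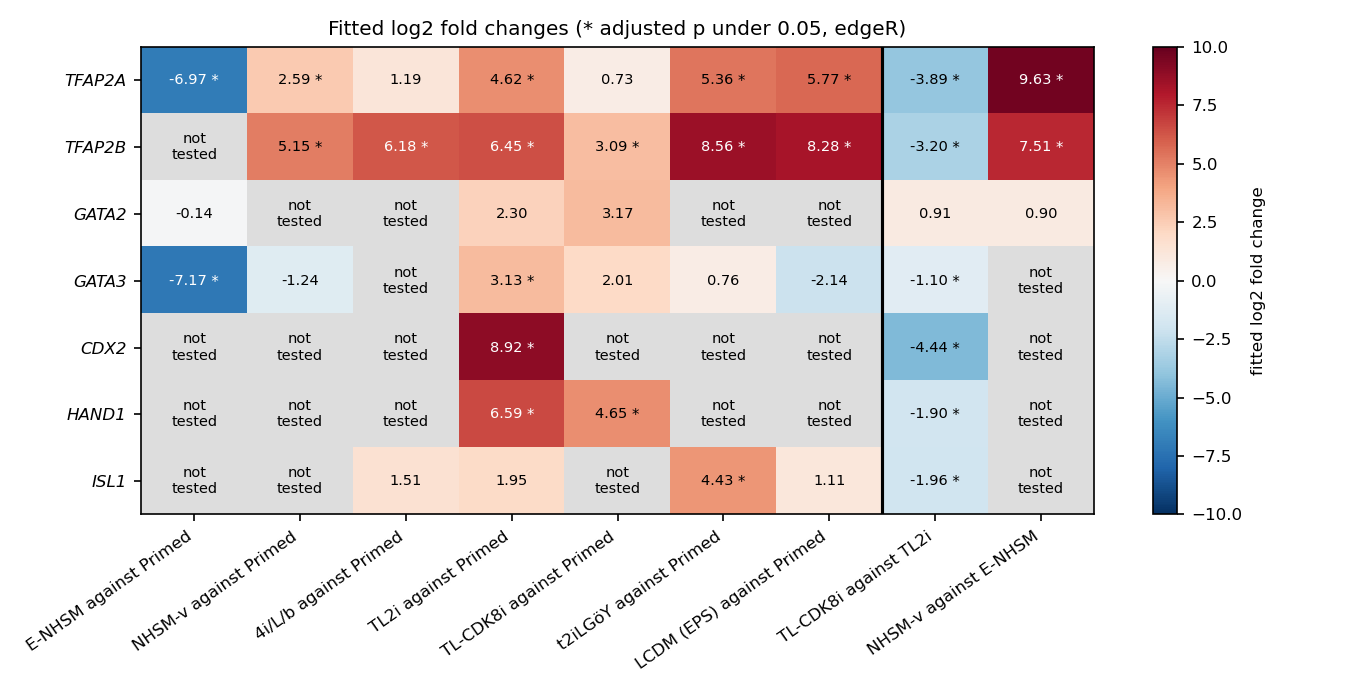
Fitted log2 fold changes of the 7 factors in 7 comparisons with primed cells and 2 comparisons between protocols; the color gives the fold change and asterisks mark an adjusted p under 0.05 (edgeR). TFAP2B was called higher in 6 protocols and TFAP2A in 4, and CDX2 was called against primed cells in TL2i alone. Fitted values where a group had at most 1 read in total (CDX2 in TL2i, TFAP2A and GATA3 in E-NHSM, TFAP2A in NHSM-v against E-NHSM) depend on the prior count and are no measure of size.

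TL-CDK8i against TL2i compares protocols that share LIF and tamoxifen and differ in the kinase inhibitors. In this comparison 6 of the 7 factors were lower in TL-CDK8i and 0 were higher, beside 33.3% lower and 31.5% higher among the 13729 genes tested. The libraries of the 6 did not overlap between the protocols, but the share of all genes without overlap was not computed. The largest falls were those of CDX2, with a log2 fold change of -4.44 ± 0.61 (adjusted p = 2.5e-05, edgeR), and TFAP2A, with -3.89 ± 0.40 (adjusted p = 1.5e-06, edgeR). TFAP2B fell by 3.20 ± 0.25 on the log2 scale (adjusted p = 1.2e-07, edgeR). Smaller falls were seen in ISL1 (-1.96 ± 0.50, adjusted p = 0.0035), HAND1 (-1.90 ± 0.33, adjusted p = 0.00017) and GATA3 (-1.10 ± 0.27, adjusted p = 0.0027, all edgeR). GATA2 had the opposite sign and missed the threshold (0.91 ± 0.41, unadjusted p = 0.042, adjusted p = 0.063, edgeR, and not called with DESeq2), with TL-CDK8i library 1 overlapping TL2i library 3. It was called higher in TL-CDK8i without TL2i library 3 (1.29, adjusted p = 0.028), without TL-CDK8i library 1 (1.11, adjusted p = 0.035) and with the stricter filter (0.90, adjusted p = 0.048, all edgeR). When all 8 groups were fitted together, with 1 estimate of the spread, 3 of the 6 calls held, those of CDX2, TFAP2A and TFAP2B, and GATA3, HAND1 and ISL1 had adjusted p-values of 0.51, 0.21 and 0.21 (edgeR).

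NHSM-v against E-NHSM compares 2 versions of the NHSM protocol, of which E-NHSM held almost no reads of the 7 factors. Both AP-2 factors were higher in NHSM-v, which made 2 of the 3 tested, beside 33.4% higher and 34.8% lower among the 13392 genes tested. TFAP2A was at least 135-fold higher against the floor of 3 counts per library (adjusted p = 2.4e-09, edgeR), and TFAP2B had a log2 fold change of 7.51 ± 0.60 (adjusted p = 4.3e-08, edgeR). GATA2, the third factor tested, was at 0.804, 0.105 and 0.987 CPM in NHSM-v and at 0, 0.999 and 0 CPM in E-NHSM (log2 fold change 0.90 ± 1.51, adjusted p = 0.61, edgeR). HAND1 and CDX2 had 0 counts in both.

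The factors fell into different orders across the groups. Pearson's correlation of log2 CPM over the 27 libraries, given as a description since libraries of a group share their protocol, was highest for TFAP2A with TFAP2B (r = 0.87), GATA3 with HAND1 (0.81), TFAP2B with ISL1 (0.75) and HAND1 with CDX2 (0.74). It was near 0 for GATA2 with TFAP2A (0.07) and slightly negative for GATA2 with ISL1 (-0.11). The orders also changed at the top. LCDM (EPS) led for TFAP2A, t2iLGöY for TFAP2B and ISL1, TL2i for GATA3, HAND1 and CDX2, and TL-CDK8i for GATA2, although the leading GATA2 libraries overlapped with those of TL2i. In each of the other 6 the leading group did not overlap with the next, a property that was not counted over all genes.

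Among 14678 genes compared, those with the pattern most like each factor over the 27 libraries were picked by the same correlation. For CDX2 they were SLC26A9, an anion transporter (r = 0.96), CEACAM5, an epithelial adhesion protein (0.96), and FGB, the fibrinogen beta chain (0.95). All 3 were highest in TL2i, where SLC26A9 averaged 10.3 ± 0.868, CEACAM5 6.34 ± 1.73 and FGB 7.01 ± 1.72 CPM (SD, n = 3), and all were at 0 CPM in primed cells. For HAND1 they were ABO, the blood group glycosyltransferase (0.84), DLX3, a homeobox factor of placenta and epidermis (0.84), and BNC1, a zinc-finger factor of keratinocytes (0.83). DLX3 averaged 2.83 ± 0.24 CPM in TL2i and 4.08 ± 0.928 in t2iLGöY.

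For TFAP2A the nearest genes were NR2F2, a nuclear receptor, CNTRL, a centrosomal protein, and WHSC1, a histone methyltransferase (r = 0.95 each). NR2F2 averaged 10.8 ± 4.03 CPM in primed cells (SD, n = 6), 477 ± 9 in LCDM (EPS) and 350 ± 24.4 in t2iLGöY, and 0.982 ± 0.614 in E-NHSM (SD, n = 3 each). For TFAP2B they were BAHCC1 (0.97), DOCK3, a guanine nucleotide exchange factor of neurons (0.96), and DLK1, an imprinted transmembrane protein (0.95). For ISL1 they were WNT10B, a Wnt ligand (0.86), ST7L (0.85) and CDH19, a cadherin of Schwann cell precursors (0.85). CDH19 averaged 36.1 ± 13.4 CPM in t2iLGöY and at most 2.63 ± 0.907 elsewhere, in TL2i. GATA3 and GATA2 had looser neighbors, GRAP (0.82), FAM212A (0.76) and the BMP target ID3 (0.75) for GATA3, and C6H5orf30 (0.76), NGB (0.76) and UPB1 (0.75) for GATA2.

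The relatives of these factors, namely GATA1, GATA4, GATA5 and GATA6, their cofactors ZFPM1 and ZFPM2, and TFAP2C, TFAP2D and TFAP2E, were followed as a list of 9. In TL2i 3 of the 6 tested were higher and 0 lower (median log2 fold change 1.62, against 0.07 for all genes tested). The largest was GATA6, a factor of primitive endoderm and amnion-fated cells, at 14.1, 18.7 and 22.9 CPM against 0 to 7.18 CPM in primed cells (log2 fold change 3.54 ± 1.06, adjusted p = 0.013, edgeR). TFAP2C, the AP-2 factor of trophoblast and naive cells, was measured in every group, with 7.46 to 40.4 CPM in primed cells. It was highest in NHSM-v, at 71.8 to 80 CPM (log2 fold change 1.95 ± 0.35, adjusted p = 0.00019, edgeR), where TFAP2A and TFAP2B were not at their highest. In LCDM (EPS), TFAP2C was lower, at 7.29 to 10.2 CPM (log2 fold change -1.14 ± 0.43, adjusted p = 0.037, edgeR), while TFAP2A and TFAP2B rose. The list counted 3 of 6 higher in t2iLGöY, 2 of 5 in NHSM-v, 2 of 6 in LCDM (EPS) with 1 lower, 1 of 6 in 4i/L/b, 1 of 6 in TL-CDK8i and 0 of 6 in E-NHSM, with none lower in these other 5.

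The trophoblast list held 29 genes, of which 25 were in the count tables. In TL2i 7 of 17 tested were higher and 5 lower (median log2 fold change 0.97, all genes 0.07), and in TL-CDK8i 8 of 16 were higher and 2 lower (median 0.56, all genes 0.02). In LCDM (EPS), where TFAP2A was highest, 1 of 15 was higher and 10 lower (median -1.53, all genes 0.03). In t2iLGöY 4 of 16 were higher and 8 lower (median -0.95), in NHSM-v 4 of 14 and 6 (median -0.94), in 4i/L/b 4 of 16 and 5 (median -0.29), and in E-NHSM 2 of 13 and 5 (median -0.26). MSX2, a BMP-responsive homeobox factor, was called higher in 6 protocols, with a mean of 0.111 CPM in primed cells, 50.8 in NHSM-v, 29.1 in TL2i, 14.5 in 4i/L/b, 9.47 in t2iLGöY, 8.7 in TL-CDK8i and 3.9 in LCDM (EPS). DLX3, with 0 CPM in primed cells, was at least 9.33-fold higher in TL2i and at least 13.5-fold higher in t2iLGöY against the floor. KRT7, a keratin of simple epithelia and trophoblast, was highest in TL-CDK8i, as only GATA2 was among the 7 factors. KRT7 was at 129, 136 and 216 CPM in TL-CDK8i, at 1.71 to 3.98 in TL2i and at 0 in t2iLGöY and LCDM (EPS). GATA2 was likewise at 0 in t2iLGöY.

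The genes taken as defining markers of trophoblast were low throughout. ELF5, GCM1, CGA, CYP19A1 and VGLL1, the 5 of 6 such markers in the tables, summed to at most 1.76 CPM in a TL2i library, 1.74 in 4i/L/b, 0.21 in NHSM-v, 0.19 in TL-CDK8i, 0.737 in t2iLGöY and 0.692 in LCDM (EPS). The sum reached 2.51 CPM in 1 primed library, all of it CYP19A1, the aromatase, which was also above 3 counts in every library of 4i/L/b (0.772 to 1.55 CPM) and TL2i (0.293 to 0.702 CPM). None of the 5 had enough counts to be tested in any comparison. In TL2i, ELF5 was at 0, 0.195 and 0.585 CPM and GCM1 at 0, 0 and 0.282 CPM. These markers were thus low in every group, those with the highest TFAP2A or GATA3 included.

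The amnion list held 15 genes, 14 of them in the tables. In TL2i 9 of 13 tested were higher and 2 lower (median log2 fold change 2.68, all genes 0.07), and in TL-CDK8i 6 of 11 were higher and 1 lower (median 1.23). GABRP, a GABA receptor subunit used as an amnion marker, had 0 CPM in all primed libraries and 54.3, 66.4 and 93.7 CPM in TL2i, at least 236-fold higher (adjusted p = 4.2e-08, edgeR). It reached 2.08, 5.04 and 13 CPM in TL-CDK8i and 0.984, 2.03 and 2.03 CPM in 4i/L/b, at least 22.1-fold and 5.55-fold higher. WNT6, a ligand made by amnion and surface ectoderm, was at 2.2, 5.29 and 5.91 CPM in TL2i and 0 in primed cells (at least 14.7-fold, adjusted p = 0.00038, edgeR).

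VTCN1, an immune checkpoint ligand also used as an amnion marker, went the other way. Its level was 107 to 141 CPM in primed cells, 5.52 to 8.25 in TL2i (log2 fold change -4.06 ± 0.17, adjusted p = 3.5e-10, edgeR), 28.3 to 44.8 in TL-CDK8i and 0 in NHSM-v and t2iLGöY. The 4 amnion-defining markers were GABRP, VTCN1, WNT6 and ISL1, and TL2i was the only protocol in which all 4 were tested against primed cells. There GABRP and WNT6 rose, VTCN1 fell and ISL1 missed the threshold, whereas in t2iLGöY ISL1 rose and VTCN1 fell, with the other 2 not tested. In the remaining protocols the whole amnion list counted 5 of 9 higher and 3 lower in NHSM-v (median 1.01), 4 of 9 and 3 in 4i/L/b (0.79), 3 of 9 and 2 in t2iLGöY (1.09), 0 of 8 and 4 in LCDM (EPS) (-1.01), and 1 of 9 and 2 in E-NHSM (-0.16).

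**Figure D4:**
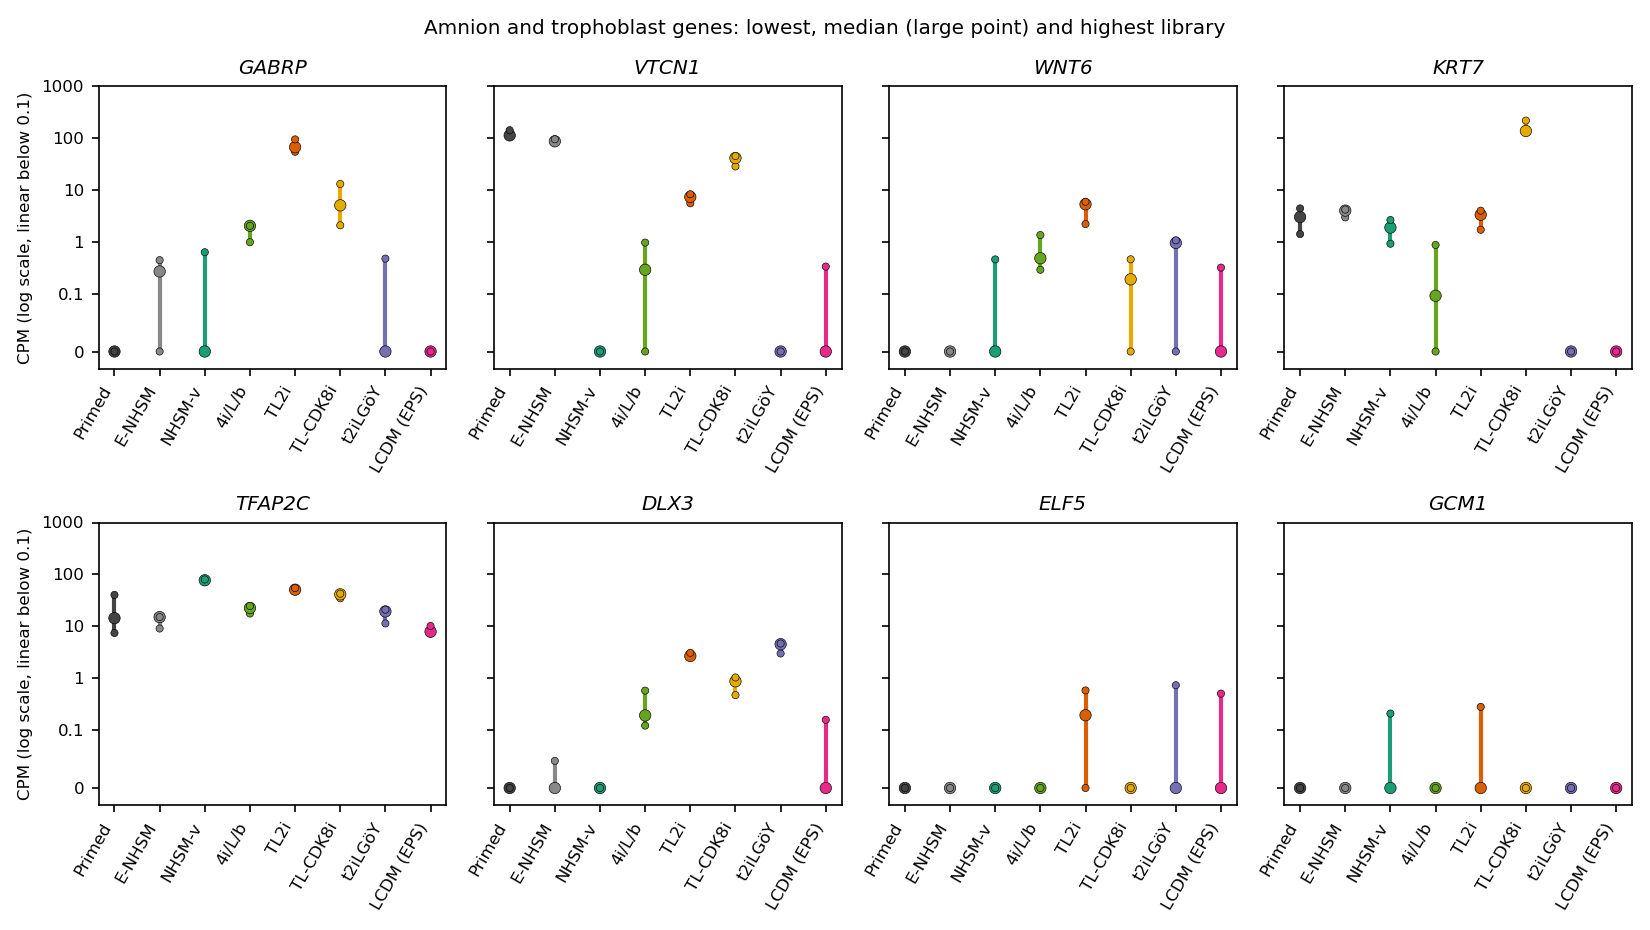
CPM of the amnion genes GABRP, VTCN1 and WNT6 and the trophoblast genes KRT7, TFAP2C, DLX3, ELF5 and GCM1 by group, on a log axis that is linear below 0.1; points mark the lowest, median (large) and highest library, lines their range. GABRP was highest in TL2i (54.3 to 93.7 CPM), VTCN1 in primed cells (107 to 141 CPM) and KRT7 in TL-CDK8i (129 to 216 CPM), and ELF5 and GCM1 stayed under 1 CPM in every library.

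BMP signaling, which induces several of the 7 factors in culture, was followed through 22 ligands, receptors, SMADs, ID targets and antagonists. The list counted 14 of 22 tested higher and 3 lower in TL2i (median log2 fold change 1.20), 14 of 22 and 2 in t2iLGöY (1.31), 15 of 22 and 5 in NHSM-v (1.60), 12 of 22 and 4 in 4i/L/b (1.01), 12 of 21 and 5 in LCDM (EPS) (1.39), 11 of 22 and 1 in TL-CDK8i (0.85), and 1 of 21 and 5 in E-NHSM (-0.07). The list holds antagonists as well as ligands and targets, so its counts are no measure of BMP signaling. In primed cells and TL2i, the secreted antagonists averaged 9.29 and 115 CPM (GREM1), 0.21 and 20.2 (NOG) and 1.03 and 11.2 (CHRD). The ligand BMP5 had 0 CPM in primed cells and 149, 167 and 183 CPM in TL2i. Its order was not that of GATA3: 4i/L/b followed with a mean of 90.9 CPM of BMP5 and 0.348 of GATA3, and TL-CDK8i had 11.6 CPM of BMP5 and 5.56 of GATA3. BMP4 was higher in TL2i (35.2 to 43.5 CPM, log2 fold change 0.99 ± 0.26, adjusted p = 0.0055, edgeR) and in TL-CDK8i (38.5 to 54.9 CPM, 1.23 ± 0.26, adjusted p = 0.0012), and was at 0.111 to 0.85 CPM in LCDM (EPS) (-5.72 ± 0.61, adjusted p = 2.4e-06). ID3, a target of BMP-activated SMADs, was called higher in TL2i, t2iLGöY and TL-CDK8i, with log2 fold changes of 1.28, 1.29 and 1.32, and lower in the other 4 protocols. ID3 was also among the genes picked above for a pattern like that of GATA3. Other genes that BMP-activated SMADs induce were divided. ID1 averaged 59 CPM in primed cells, 25.2 in TL2i (log2 fold change -1.22 ± 0.19, adjusted p = 0.00013, edgeR) and 89.3 in t2iLGöY (0.63 ± 0.18, adjusted p = 0.0087, edgeR). The inhibitor SMAD7 averaged 129 CPM in primed cells and 21.3 in TL2i (-2.59 ± 0.20, adjusted p = 1.9e-07, edgeR). Means in primed cells, TL2i and t2iLGöY went up for ID2 (15.7, 84.6 and 103 CPM) and ID4 (11.3, 24.8 and 31.4). The same held for SMAD6 (1.59, 5.59 and 6.42 CPM).

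Because the 7 factors act in other lineages, gene lists of those lineages were counted beside them. The shares of all genes called in each comparison are those given above for the 7 factors. The medians of all genes lay between -0.02 and 0.07. Of 14 neural crest and surface ectoderm genes, 8 of 11 tested were higher in TL2i and 1 lower (median 3.00), 7 of 10 and 2 in t2iLGöY (4.44), 7 of 9 and 2 in TL-CDK8i (2.63), 6 of 9 and 2 in 4i/L/b (3.25), 5 of 9 and 2 in NHSM-v (2.39), 4 of 9 and 3 in LCDM (EPS) (1.44) and 2 of 7 and 1 in E-NHSM (-1.11). PAX7, a neural crest and dorsal neural tube factor, had 0 CPM in primed cells and averaged 66.7 CPM in LCDM (EPS), 43.5 in TL2i and 16.4 in t2iLGöY.

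Of 19 genes of spinal and hindbrain neurons, 12 of 12 tested were higher in LCDM (EPS) (median 8.53), 8 of 11 in t2iLGöY (7.19), 7 of 8 in NHSM-v (4.79), 4 of 7 in TL2i (2.14), 3 of 7 in 4i/L/b (2.50) and 2 of 2 in TL-CDK8i (2.03), with none lower in these 6, and 0 of 2 were higher and 2 lower in E-NHSM (-4.21). The summed level of 5 neuron markers (TUBB3, DCX, ELAVL4, STMN2 and NEFL) was 23.5 to 41.4 CPM in primed cells. It was 2020 to 2220 CPM in LCDM (EPS) and 1650 to 1810 in t2iLGöY, the groups with the highest TFAP2A and TFAP2B. The sum was 593 to 685 CPM in NHSM-v, 402 to 449 in 4i/L/b, 291 to 426 in TL-CDK8i, 197 to 210 in TL2i and 41.5 to 51.1 in E-NHSM. TL-CDK8i thus had a higher neuron sum than TL2i, but lower means of TFAP2A (5.77 against 82 CPM) and TFAP2B (8.62 against 76.8 CPM). The part of neuronal RNA in the AP-2 and ISL1 levels of these groups was not tested.

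**Figure D5:**
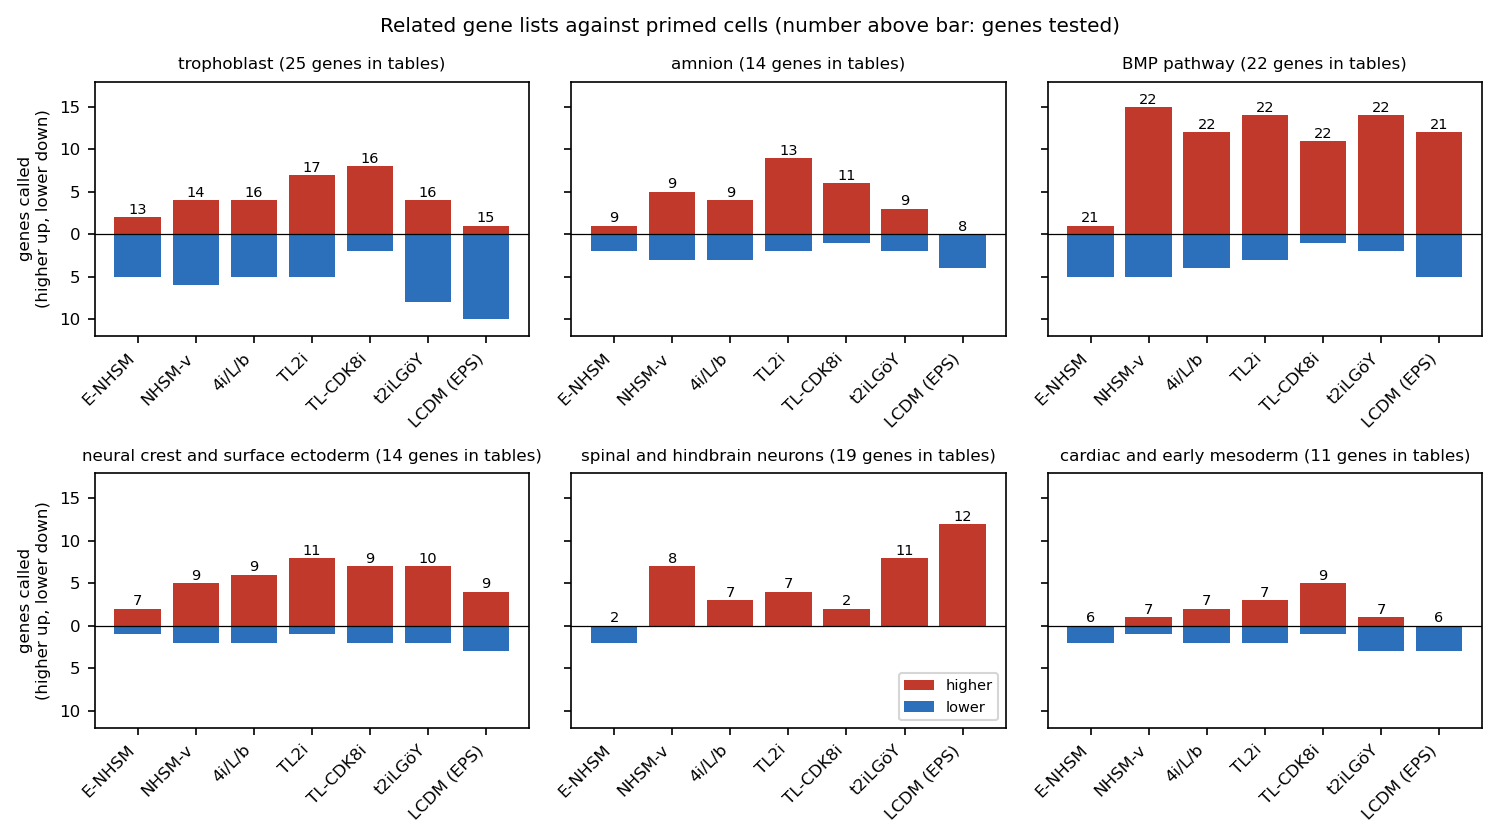
Genes called higher (red, upward) and lower (blue, downward) against primed cells in each of 7 protocols, for 6 of the related gene lists; the number above each bar is how many genes of the list were tested. Amnion genes called higher were most numerous in TL2i (9 of 13), genes of spinal and hindbrain neurons in LCDM (EPS) (12 of 12), and trophoblast genes called lower in LCDM (EPS) (10 of 15).

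Further lists were tied to HAND1, CDX2 and GATA2. Among all genes tested, 25.6% were higher and 25.2% lower in TL2i, and 22.3% and 23.8% in TL-CDK8i. Of 12 cardiac and early mesoderm genes, 11 in the tables, 5 of 9 tested were higher in TL-CDK8i and 1 lower (median 2.04), with TBX5, a factor of heart and forelimb, averaging 14.2 CPM against 0 in primed cells. In TL2i, where HAND1 was highest, 3 of 7 were higher and 2 lower (0.11). The list counted 2 of 7 higher and 2 lower in 4i/L/b (0.67), 1 of 7 and 1 in NHSM-v (-0.19), 1 of 7 and 3 in t2iLGöY (-1.59), 0 of 6 and 3 in LCDM (EPS) (-2.10) and 0 of 6 and 2 in E-NHSM (-1.14). Of 10 caudal and intestinal genes, 9 in the tables, 2 of 7 were higher and 2 lower in TL2i (0.17), where CDX2 was highest. Both counts were near the shares of all genes. CDH17, an intestinal cadherin and target of CDX2, did not follow CDX2 across the groups. Its mean was 0 CPM in primed cells, 1.41 in TL2i, 1.4 in NHSM-v, which had 0 counts of CDX2, and 1.71 in 4i/L/b. Between 0 and 2 genes of that list were higher in each other protocol, and 1 or 2 lower. Of 7 endothelial and blood genes, 2 of 5 were higher and 0 lower in TL-CDK8i (1.46), where GATA2 was highest, and 1 of 4 higher and 1 lower in TL2i (-0.06). In the other 5 protocols, 0 to 2 genes of that list were higher and 1 or 2 lower.

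Markers of pluripotent cells and fibroblasts also differed between the groups. The 7 pluripotency markers (POU5F1, NANOG, PRDM14, TDGF1, LIN28A, DPPA4 and ZIC2) summed to 3190 to 3450 CPM in primed cells and 2970 to 3090 in E-NHSM, the group with the fewest reads of the 7 factors. The sum was 1140 to 1620 CPM in TL-CDK8i, 442 to 507 in TL2i, 283 to 307 in NHSM-v, 269 to 326 in t2iLGöY, 240 to 248 in LCDM (EPS) and 156 to 168 in 4i/L/b. All 7 were called lower in 6 protocols, and 3 were lower and 1 higher in E-NHSM. The sum in NHSM-v was mostly ZIC2 (mean 295 CPM), with POU5F1 at 0.296 CPM against 1190 in primed cells. ZIC2 was also its largest part in 4i/L/b (112 CPM), LCDM (EPS) (232) and t2iLGöY (289), where POU5F1 averaged 0.905, 3.09 and 1.17 CPM. TL2i held mostly LIN28A (271 CPM) and ZIC2 (198), with POU5F1 at 6.43 CPM. NANOG averaged at most 0.316 CPM in these protocols, against 134 in primed cells. In TL-CDK8i POU5F1 averaged 498 and NANOG 73.3 CPM. The 7 fibroblast markers (COL1A1, COL1A2, COL3A1, DCN, LUM, THY1 and PDGFRB) summed to 1160 to 2370 CPM in primed cells, 404 to 450 in E-NHSM, 11600 to 15200 in 4i/L/b, 8530 to 11000 in TL-CDK8i, 7980 to 8550 in NHSM-v, 2940 to 5760 in TL2i, 3430 to 4010 in t2iLGöY and 755 to 978 in LCDM (EPS). LCDM (EPS) had the highest TFAP2A and the lowest fibroblast sum after E-NHSM. In 4i/L/b, with the highest fibroblast sum, TFAP2A was under 10 CPM, but TFAP2B was called higher, at 63.5 to 70.1 CPM. These sums were mostly COL1A1 and COL1A2, and the markers did not move together. In LCDM (EPS), 2 of 7 tested were higher than in primed cells and 4 lower. There DCN averaged 6.98 and LUM 3.33 CPM, against 0 for both in primed cells. In t2iLGöY, 3 of 5 tested were higher and 2 lower, with DCN and LUM at 0. The part of a change in cell makeup in the levels of the 7 factors was not tested.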

How the data were processed

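The authors made stranded mRNA libraries (NextFlex Rapid Directional kit) and sequenced single reads. The submitters' processing notes name bcl2fastq, cutadapt, HISAT2 and HTSeq. Their versions, the genome build, the annotation and the strand setting are not given in the sources used here, so that reads of a gene and an antisense partner could not be told apart. The deposited values are raw counts per gene in 8 tables, joined by symbol, with 0 columns left unmapped.

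Groups followed the labels. The labels name more than 1 set of primed samples. The 6 primed columns carry the letters J and K, which the labels do not tie to a set, and were pooled as 1 group. CPM used TMM factors over all 27 libraries. Each comparison was fitted on its own groups with edgeR 4.0.16 in R 4.3.3 (glmQLFit and glmQLFTest after filterByExpr with a minimum count of 10), with Benjamini-Hochberg adjustment over all genes tested. Bounds used a floor of 3 counts per library. The alternatives were DESeq2 1.42.0, other scalings, filters and sample sets. The fit was tested on simulated data.

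The factors, 9 context lists and 5 marker lists were chosen with earlier results of these data known. All 7 factors were named in every comparison. From each context list, the called genes with the largest rise and fall at a mean of at least 1 CPM were eligible, with list genes that describe a list or lie at 0, and for each factor the 3 non-member genes with the highest correlation over 27 libraries. KRT18, KRT19, HSD3B1, CYP11A1, ANXA8 and TBXT were not analysed here. Libraries of a group all differed beyond sampling noise. No sequence or coordinate is printed, since no genome was used here.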

Additional observations from a re-analysis of the deposited data

Results flagged for a closer look

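With 6 primed libraries, the level of a factor in the highest or lowest library was set against the others, and 2 of the 6 factors with any primed reads had a library far from the rest. Chance gives about 1 in 20 such groups for continuous values, a rate that does not apply where most libraries are at 0. ISL1 stood at 3.38 CPM in primed library J3, on 24 counts, against 0 to 0.282 CPM in the other 5. HAND1 stood at 0.346 CPM in primed library K1, on 4 counts, against 0 in the other 5, so that its whole range is this gap and it rests on 1 count above the floor. Groups of 3 libraries were not examined in this way.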

How the results depend on the processing

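The number of factors called was recomputed under each alternative. In E-NHSM against primed cells it was 2 and became 1 with the replicate block, 1 with primed columns J only and 1 with K only. It became 0 with the stricter filter, which kept only genes with at least 10 counts in every library of the protocol named first. GATA3 and TFAP2A, the 2 factors called, had fewer counts in E-NHSM. This filter therefore removed both before any test, and the 0 was fixed in advance. In 4i/L/b it was 1 and became 2 with DESeq2, 2 without a filter, 3 with all 8 groups in 1 fit and 3 with primed columns K only. In t2iLGöY it rose from 3 to 5 with all 8 groups in 1 fit, and in TL-CDK8i from 2 to 4, falling to 1 with primed columns J only. In TL-CDK8i against TL2i it fell from 6 to 3 with all 8 groups in 1 fit. The causes of the other changes were not tested.

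Leaving out each library in turn gave 1 to 2 called in E-NHSM, 2 to 2 in NHSM-v, 1 to 2 in 4i/L/b, 4 to 6 in TL2i, 3 to 4 in t2iLGöY, 2 to 3 in LCDM (EPS), 1 to 3 in TL-CDK8i, 6 to 7 in TL-CDK8i against TL2i and 2 to 2 in NHSM-v against E-NHSM. Over the alternatives, 39 tested pairs of factor and comparison gave 664 log2 fold changes. Of these, 624 kept direction and side of the threshold, 18 lost the call, 19 gained it and 3 reversed. The 624 include every pair under 1 alternative that refitted nothing, a required absolute log2 fold change of at least 1. Every called fold exceeded that size, so this alternative could change no call. The reversals were GATA2 in E-NHSM, to 0.45 and 0.44 without library 1 or 3 of that protocol, over a range of -5.26 to 0.45, and TFAP2A in TL-CDK8i, to -0.61 without library 1 of that protocol, over a range of -0.61 to 1.17.

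The replicate numbers did not pair the libraries: the 27 correlations of same-numbered deviations lay between -0.12 and 0.02. The replicate block lowered the count in E-NHSM, where GATA3 had an adjusted p of 0.091 (edgeR), and left the number called as it was in the other 8 comparisons.

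Depth limits GATA2, CDX2, HAND1 and ISL1 most: in primed cells they rest on 0 to 24 counts a library, so an absence there means under about 0.212 to 0.422 CPM.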
